A study of Mus musculus with 22 samples.

Results

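Hearts at the opposite ends of thyroid hormone receptor α1 (TRα1) signalling were compared: wild-type mice that drank the active hormone T3, and TRα1+m mice that drank water. The rule took the 6 arrays titled as wild type on T3 and the 5 titled as TRα1 mutant on water, 11 of the 22 arrays of the series, after joint quantile normalization of the gene probe sets over all 22 arrays. All animals were male C57/BL6NCr mice aged 3 to 6 months, housed singly at 30 °C, and RNA came from the whole heart, with 1 Clariom S Mouse array per sample. Wild-type mice on T3 received 0.5 mg/L of the hormone with 0.01% BSA in the drinking water for 12 days, and TRα1+m mice on water received 0.01% BSA alone. TRα1+m mice (TRα1R384C+/m) carry 1 mutant and 1 normal copy of the receptor in every cell from conception, so genotype and hormone differ at once in this comparison and cannot be told apart within it. The other groups were 6 wild types that drank water and 5 TRα1+m mice that drank T3; they had the same strain, age, housing and vehicle, and their levels are given beside the 2 ends.

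T3 enters cells and binds nuclear receptors that sit on DNA with a retinoid X receptor partner. TRα1 is the main such receptor of heart muscle. Without hormone it recruits corepressors and holds target genes down, and with hormone it exchanges them for coactivators. The mutant receptor binds T3 with lowered affinity and acts as a dominant repressor until the hormone concentration is high. In rodent hearts T3 is known for the switch from β to α myosin heavy chain, for faster calcium handling and for a faster beat.

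Levels are normalized log2 intensities, differences are log2 differences (wild type on T3 minus TRα1+m on water) ± the limma standard error, and a probe set was called at a Benjamini-Hochberg adjusted p below 0.05. Of 22206 gene probe sets 21089 had a mean above 4 and were tested, and 9968 (47.3%) were called, 5124 higher (24.3%) and 4844 lower (23%) in wild type on T3. At least 2-fold differences were called for 2359 probe sets, 1134 higher (5.38%) and 1225 lower (5.81%). Of these 2359, picked for large differences between the same arrays, 1998 showed no overlap between the 6 and the 5 arrays. Over all tested probe sets, without that choice, the share was 27.8%. Differences of at least 4-fold were called for 152 probe sets upwards and 145 downwards, and of at least 8-fold for 25 and 32. The median size of a difference over all tested probe sets was 0.38 with a median standard error of 0.16. Of all 6 pairs of groups this pair lay farthest apart, with a root mean square difference of 0.69. The other pairs across the genotypes differed by 0.50, 0.55 and 0.565, the wild-type groups by 0.36 and the TRα1+m groups by 0.45.

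In the deposited values the genotypes lay on different scales: the median difference was -0.36 over gene probe sets, -0.44 over negative-control probe sets and -0.38 over ERCC spike-ins. After normalization these differences were 0.01, -0.04 and 0.06. Deposited gene medians were 6.51 to 6.62 per array in wild type on T3 and 6.99 to 7.09 in TRα1+m on water. Any technical difference between the arrays of the genotypes runs along with genotype and cannot be told apart from it here. The split of calls moved with the scale: 51.4% of called probe sets were higher after quantile normalization, 19.4% in the deposited values, 63.2% when each array was centred on its median gene and 70.3% when centred on its median negative control. The median difference over all tested probe sets moved to -0.37, 0.10 and 0.18 under these 3 scalings, so every difference is relative to the rest of the array. The median negative-control level was 6.44 in TRα1+m on water and 6.37 in wild type on T3, and a group mean below it was not shown to exceed background. The lower group alone was below this level for 224 of the probe sets that rose at least 2-fold and 271 of those that fell, and both groups were for 308. Wild-type T3 array 6 and wild-type water array 3 stood apart on the third principal component, and without both of them 9946 probe sets were called. Cardiomyocyte markers checked the tissue label: all 10 lay above the negative controls in both groups, and their summed level spanned 21.86 to 21.95 in wild type on T3 and 21.96 to 22.06 in TRα1+m on water. The mutation changes an amino acid, which an expression level does not read, so the genotype label was not checked.

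**Figure D1:**
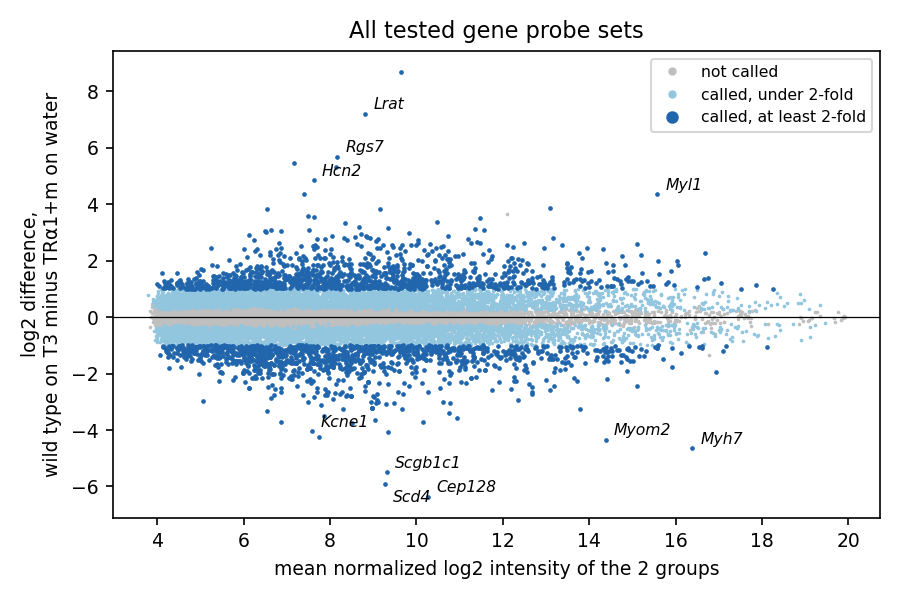
Each point is 1 tested gene probe set, with the mean normalized log2 intensity of both groups on the x axis and the log2 difference, wild type on T3 minus TRα1+m on water, on the y axis. Grey points were not called, light blue points were called under 2-fold and dark blue points were called at 2-fold or more (1134 above 0 and 1225 below).

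With predicted genes left out, the named genes with the largest rises were Lrat, Rgs7, Tlcd2, Hcn2, Cntn2, Myl1, Egln3, Klhl33, Retnla and Irf7. Lrat encodes lecithin retinol acyltransferase, which esterifies retinol for storage. Its level was 4.86, 5.85, 5.07, 5.18 and 5.11 in the 5 TRα1+m arrays on water, and ran from 11.09 through a median of 12.61 to 12.85 in wild type on T3. The groups did not overlap, the TRα1+m arrays were all below the negative controls, and the difference was 7.20 ± 0.26 (adjusted p = 8.7e-16, limma), which against the negative-control level is at least 63-fold. Wild type on water stayed with the low end at 5.88 ± 0.12 (SD, n = 6), while TRα1+m on T3 reached 9.89 ± 0.50 (SD, n = 5). Rgs7, a GTPase-activating protein for inhibitory G protein α subunits, lay at 5.44, 5.59, 5.10, 5.55 and 4.94 in TRα1+m on water and between 10.65 and 11.29 in wild type on T3 (median 10.99). Its difference was 5.68 ± 0.25 (adjusted p = 3.2e-14), at least 23.7-fold. Wild type on water already stood above TRα1+m on water for Rgs7 (7.43 against 5.33, adjusted p = 1.1e-06, limma). For Lrat both means on water (5.88 and 5.21, limma adjusted p = 0.042) were below the negative controls and were not shown to exceed background. The largest difference of all tested probe sets, 8.68, belonged to a probe set without a gene name here.

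Hcn2 encodes a hyperpolarization-activated channel that carries the pacemaker current. It was at 5.24, 4.93, 5.32, 5.58 and 4.89 in TRα1+m on water and at 9.80 to 10.34 in wild type on T3 (median 10.01). All 5 low arrays were below the negative controls and all 6 high arrays well above, a difference of 4.85 ± 0.22 (adjusted p = 5.2e-14) and at least 12.2-fold. Wild type on water lay between, at 7.16 ± 0.42 (SD, n = 6), and TRα1+m on T3 lay at 9.89 ± 0.57 (SD, n = 5), 96.8% of the way from the low to the high end. Cntn2, a cell adhesion protein that marks the conduction system of the mouse heart, rose by 4.35 ± 0.20, from 5.22 to 9.57, at least 8.76-fold. Its mean was 7.17 in wild type on water and 7.03 in TRα1+m on T3, both near the middle of the range.

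Myl1 and Egln3 rose from levels well above background. Myl1, an alkali myosin light chain of fast skeletal muscle, was at 13.54, 14.21, 12.92, 12.88 and 13.43 in TRα1+m on water and at 17.47 to 17.84 in wild type on T3 (median 17.80). The groups stood far apart, by 4.35 ± 0.18 (20.4-fold, adjusted p = 9.9e-15), and wild type on water lay about midway at 15.64. Of 8 skeletal muscle markers 6 were below background in both groups. Actn3 (1.59-fold, above background), Tnnt3, Pvalb and Tnni2 (1.43-fold to 1.82-fold, below background) were called higher, Tnni2 losing its call without wild-type T3 array 3 or 5 or TRα1+m water array 1, 2 or 5, and Ckm, the muscle creatine kinase, was called 1.31-fold lower, but not when arrays were centred on the median gene. The summed level of the 8, close to that of Ckm alone, was 14.30 to 14.77 in TRα1+m on water and 14.08 to 14.42 in wild type on T3. Egln3, an oxygen-sensing prolyl hydroxylase that marks hypoxia-inducible factor for degradation, was at 11.36, 11.34, 11.08, 11.33 and 10.70 at the low end and at 14.89 to 15.23 at the high end (median 15.00), a 14.7-fold difference. Klhl33, a kelch-like protein, rose 14.2-fold from 7.24 to 11.07. Tlcd2, a membrane protein of the TLC domain family, rose by 5.30 ± 0.17 from 5.50, below background, to 10.80, at least 20.5-fold. Retnla, a resistin-like protein of alternatively activated macrophages, rose at least 4.04-fold, and most of its difference was already present in wild type on water (8.08 against 4.64 in TRα1+m on water).

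With predicted genes left out, the named genes with the largest falls were Cep128, Scd4, Scgb1c1, Myh7, Myom2, Afmid, Efnb3, Kcne1, Cpxm2 and Penk. Cep128, a protein of the mother centriole, was at 13.48, 12.96, 13.53, 13.41 and 13.81 in TRα1+m on water and at 6.64 to 7.28 in wild type on T3 (median 7.15), close to the negative-control level of 6.37. The difference was -6.36 ± 0.22 (82.0-fold, adjusted p = 5e-16), with wild type on water about midway at 10.50 ± 0.32 (SD, n = 6) and TRα1+m on T3 at 9.15 ± 0.61 (SD, n = 5). Scgb1c1, a secretoglobin, was at 11.93, 12.18, 12.40, 11.63 and 12.16 in TRα1+m on water and at 6.08 to 7.00 in wild type on T3 (median 6.65). In contrast to Cep128, wild type on water had kept most of the Scgb1c1 level (10.99), and TRα1+m on T3 had lost most of it (7.54). Scd4, a stearoyl-CoA desaturase, fell from 12.22 to 6.32, below the negative controls, at least 57.5-fold.

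Myh7, the slow β myosin heavy chain, was at 18.60, 19.20, 18.83, 18.02 and 18.88 in TRα1+m on water and at 13.01 to 14.49 in wild type on T3 (median 14.31). The groups did not overlap, and the fall of 4.65 ± 0.27 (25.2-fold, adjusted p = 4e-12) was the largest among sarcomere genes. Wild type on water lay at 15.92 ± 0.48 (SD, n = 6), and TRα1+m on T3 at 14.07 ± 0.40 (SD, n = 5), the same mean as wild type on T3 within the spread of either group. Myom2, the M-band protein of fast fibres, fell by 4.34 ± 0.18 from 16.55 to 12.21, and here wild type on water (15.93) stayed close to TRα1+m on water. Kcne1, the β subunit of the slow delayed rectifier channel, was at 9.33, 9.68, 9.31, 10.08 and 9.61 in TRα1+m on water, and fell below the negative controls in wild type on T3 (4.66 to 6.14, median 5.87), at least 9.38-fold. Afmid, a formamidase of tryptophan breakdown, fell at least 11.4-fold from 9.88 to 5.62. Efnb3 (ephrin B3), Cpxm2 (a carboxypeptidase-like protein) and Penk (proenkephalin) fell 16.6-fold, 13.3-fold and 13.0-fold, with all 6 wild-type arrays on T3 below all 5 TRα1+m arrays on water for each.

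**Figure D2:**
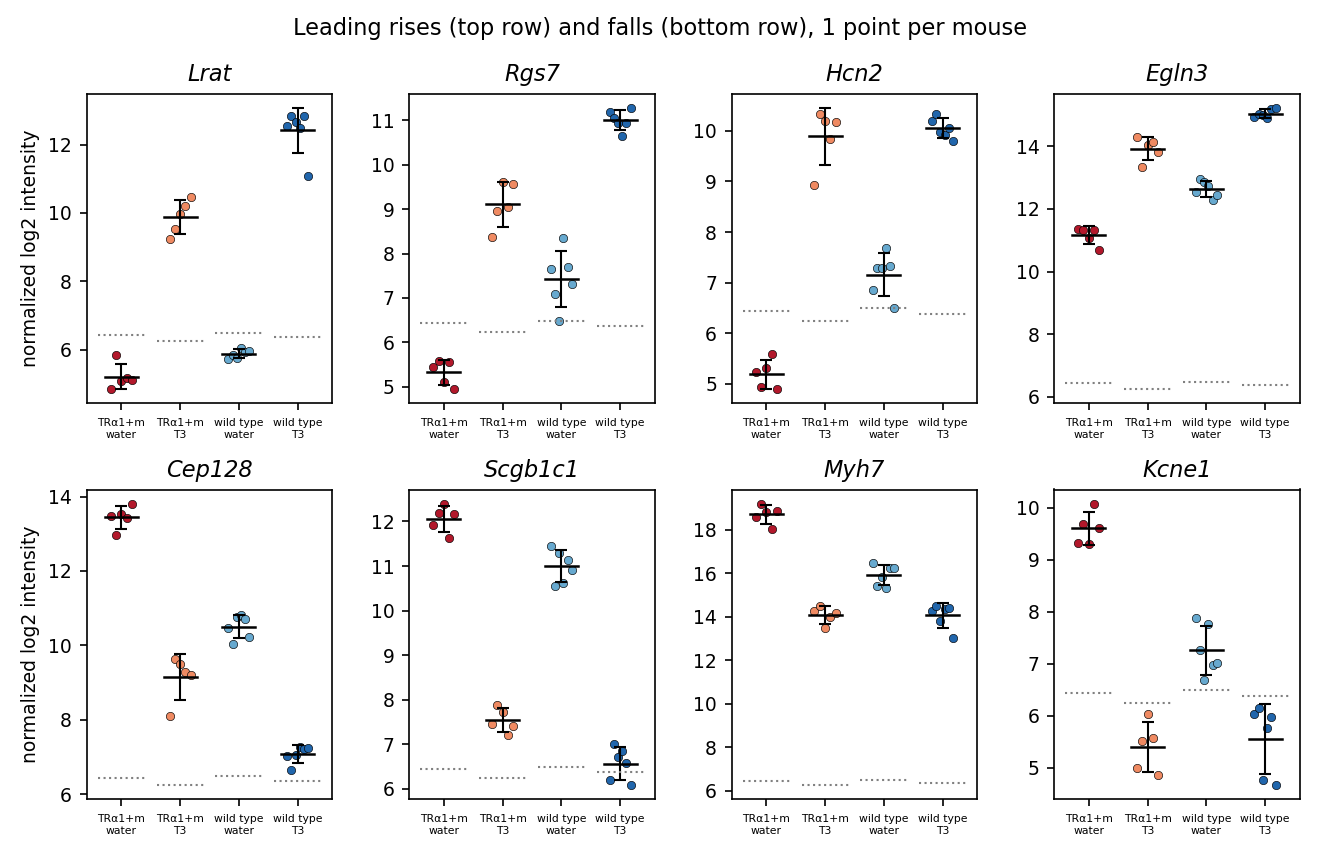
Normalized log2 intensity of 4 leading rises and 4 leading falls in each mouse, in TRα1+m on water, TRα1+m on T3, wild type on water and wild type on T3. Black lines are group means with SD and dotted lines the median negative-control level; for Lrat wild type on water stays at 5.88 near the low end, and for Myh7 both T3 groups meet at 14.07 and 14.05.

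Promoter sequences of 4 genes are shown because the receptor binds DNA through the half-site AGGTCA, here in capitals wherever it or its reverse complement TGACCT occurs. They are RefSeq sequences of build GRCm38.p6, from 250 bases before to 50 bases after an annotated start. Hcn2 and Ryr2 rose and Scgb1c1 and Myh7 fell between the 2 ends. Hcn2 lies at chr10:79716384-79716683 on the + strand, Ryr2 at chr13:12106896-12107195 on the - strand, Scgb1c1 at chr7:140845315-140845614 on the + strand and Myh7, of which 1 of 2 annotated starts is shown, at chr14:54994577-54994876 on the - strand.
Hcn2: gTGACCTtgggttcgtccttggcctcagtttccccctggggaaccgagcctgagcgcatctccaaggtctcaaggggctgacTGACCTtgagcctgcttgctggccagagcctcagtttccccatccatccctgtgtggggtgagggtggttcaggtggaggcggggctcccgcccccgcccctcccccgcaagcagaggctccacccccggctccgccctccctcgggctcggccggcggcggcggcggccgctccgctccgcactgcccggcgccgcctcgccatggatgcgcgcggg
Ryr2: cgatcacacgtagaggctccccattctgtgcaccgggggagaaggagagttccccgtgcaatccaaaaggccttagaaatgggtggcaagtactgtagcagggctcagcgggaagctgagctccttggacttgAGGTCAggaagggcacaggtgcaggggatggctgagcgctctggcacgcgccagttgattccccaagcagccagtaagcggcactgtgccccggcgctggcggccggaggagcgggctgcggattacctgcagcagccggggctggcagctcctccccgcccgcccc
Scgb1c1: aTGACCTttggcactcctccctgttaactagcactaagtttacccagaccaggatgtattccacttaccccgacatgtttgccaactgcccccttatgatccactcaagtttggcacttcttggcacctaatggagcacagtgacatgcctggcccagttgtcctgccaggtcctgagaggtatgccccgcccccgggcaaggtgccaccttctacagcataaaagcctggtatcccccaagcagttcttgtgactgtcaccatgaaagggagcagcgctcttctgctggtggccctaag
Myh7: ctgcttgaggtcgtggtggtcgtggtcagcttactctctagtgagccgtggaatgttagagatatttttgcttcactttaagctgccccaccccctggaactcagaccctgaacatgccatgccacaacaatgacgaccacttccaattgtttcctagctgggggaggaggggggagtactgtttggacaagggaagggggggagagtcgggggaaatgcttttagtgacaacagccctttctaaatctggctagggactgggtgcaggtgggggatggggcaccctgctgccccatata
The Hcn2 window held 2 half-sites, whose first bases lie 249 and 168 bases before the start, both on the opposite strand. Ryr2 held 1, at 117 bases before the start, and Scgb1c1 held 1, at 249 bases before the start on the opposite strand. Neither Myh7 window held one. The 4 genes were picked by hand, and most other leading genes with a promoter sequence held no half-site. Among the leading rises Lrat, Rgs7, Tlcd2, Cntn2, Myl1, Egln3 and Irf7 had none, and Klhl33 and Retnla had 1 window with it. Among the leading falls Cep128, Scd4, Afmid and Cpxm2 had none. Over all genes the letters did not follow the direction of change: at least 1 window held the half-site, on either strand, for 15.7% of 814 genes that rose at least 2-fold, 16.7% of 707 that fell at least 2-fold and 16.1% of all 14887 tested genes with a promoter sequence. The share over all 32851 RefSeq windows was 16.3%.

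Among receptors and their partners 5 of 11 measured genes were called higher and 3 lower. This and the later counts stand against the 24.3% called higher and 23% called lower over all tested probe sets. Thra, the gene of the receptor itself, was at 12.25, 12.10, 12.18, 12.37 and 12.06 in TRα1+m on water and at 9.72 to 10.09 in wild type on T3 (median 9.90). All wild-type arrays on T3 lay below all TRα1+m arrays, a fall of 2.31 ± 0.14 (4.96-fold, adjusted p = 5.5e-12), and the other groups lay between at 10.81 (wild type on water) and 11.08 (TRα1+m on T3). The array value was not resolved into the α1 and α2 transcripts of the gene. Rxrg, the γ form of the retinoid X receptor partner, fell 2.81-fold, from 13.05 to 11.56. Rxrb, the β form, rose 1.88-fold from a TRα1+m water level of 7.09 ± 0.24 (SD, n = 5), with a limma adjusted p of 0.00027. Thrb, the sister receptor, rose by 0.67 ± 0.16 (adjusted p = 0.0016), although only 2 of 6 wild-type arrays on T3 lay above every TRα1+m array. Hr, a corepressor of the receptor and itself a classic T3 target, rose by 2.09 ± 0.21, at least 4.09-fold, and its rise lay almost wholly between the wild-type groups (6.62 on water, 8.47 on T3).

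Of 16 measured genes known to be raised by T3, 11 were called higher, 8 of them at least 2-fold, and 2 were called lower, with a median difference of 1.13 against 0.01 over all tested probe sets. Klf9, a Krüppel-like factor that receptors induce directly in many tissues, was at 11.71, 11.18, 11.13, 11.42 and 11.69 in TRα1+m on water and at 13.19 to 13.70 in wild type on T3 (median 13.45). This 4.10-fold rise was nearly complete in wild type on water (13.35). The 2 that fell were Ppargc1a, the coactivator of mitochondrial biogenesis, by 1.61 ± 0.12 (adjusted p = 2.5e-10), and Slc2a4, the insulin-responsive glucose transporter, by 0.68 ± 0.12 (adjusted p = 6.1e-05). Ucp3, a mitochondrial carrier, did not pass the test (1.63 ± 0.69, adjusted p = 0.054); its 5 TRα1+m values of 11.94, 9.05, 10.20, 12.98 and 8.16 spanned the whole range of wild type on T3. Thrsp, a lipogenic factor of liver, did not pass either (-0.18, adjusted p = 0.73). All 7 measured genes known to be lowered by T3 were called lower, 4 of them at least 2-fold, with a median of -1.58. They included Slc8a1, the sodium-calcium exchanger (-1.58), Pln (-0.37) and Tnni1, the troponin I of slow muscle and of the fetal heart, which was at 5.92 to 7.47 in TRα1+m on water, around the negative-control level, and below background in each other group.

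Genes of rhythm and conduction moved in both directions. Of 22 measured pacemaker and conduction genes 9 were called higher, 6 of them at least 2-fold, and 6 lower. Hcn4, the main pacemaker channel of the sinus node, was at 6.51, 5.91, 6.55, 6.25 and 5.98 in TRα1+m on water and at 8.12 to 8.74 in wild type on T3 (median 8.20), a rise of 2.08 ± 0.19 and at least 3.68-fold. The summed level of 6 atrial markers was 19.33 to 19.81 in TRα1+m on water and 19.60 to 19.84 in wild type on T3, and its part in the Hcn4 rise was not tested. Irx3, a transcription factor of the ventricular conduction system, fell 3.23-fold from 13.36 to 11.67. Of 36 potassium channel subunits 12 were called higher and 14 lower, 5 and 7 of them at least 2-fold. Kcna5 (ultrarapid delayed rectifier), Kcnd2 (transient outward) and Kcnh2 (rapid delayed rectifier) rose by 1.78, 1.26 and 0.98. For these 3 genes wild type on water was as high as wild type on T3 (8.60 against 8.68, 9.51 against 9.21 and 12.97 against 12.73), and their T3 step in wild type was not called.

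Kcnip2, the β subunit of the transient outward channel, behaved otherwise. It was at 14.66, 14.23, 14.33, 14.38 and 14.45 in TRα1+m on water and at 11.73 to 12.18 in wild type on T3 (median 11.98), a 5.43-fold fall, while wild type on water was higher still (14.88) and TRα1+m on T3 low (12.18). Kcna4, a transient outward α subunit, fell from 7.18 to below background, at least 1.75-fold. Abcc9, the sulfonylurea receptor of the ATP-sensitive channel, fell 2.22-fold, and Kcnj2 and Kcnq1, of the inward rectifier and the slow delayed rectifier, fell 2.45-fold and 2.32-fold.

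Among 27 autonomic and cyclic nucleotide genes 10 were called higher and 8 lower. Pde3a, a phosphodiesterase that limits cyclic AMP in heart muscle, was at 13.40, 13.19, 13.32, 14.00 and 13.40 in TRα1+m on water and at 10.71 to 11.03 in wild type on T3 (median 10.95). Every wild-type array on T3 was more than 2 log2 units lower than every TRα1+m array, and the fall was 5.80-fold (adjusted p = 1.2e-13). Pde1c, a calcium-activated phosphodiesterase, fell 8.17-fold from 12.29 to 9.26. The regulators of G protein signalling went apart: Rgs2 fell 9.63-fold from 11.29 to 8.02, whereas Rgs4 rose 3.64-fold from 7.93 to 9.80. Chrm2, the muscarinic receptor of vagal slowing, was at 10.57 and 10.40 and did not pass the test (-0.17 ± 0.15, adjusted p = 0.37). Adrb1 was not analysed here.

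**Figure D3:**
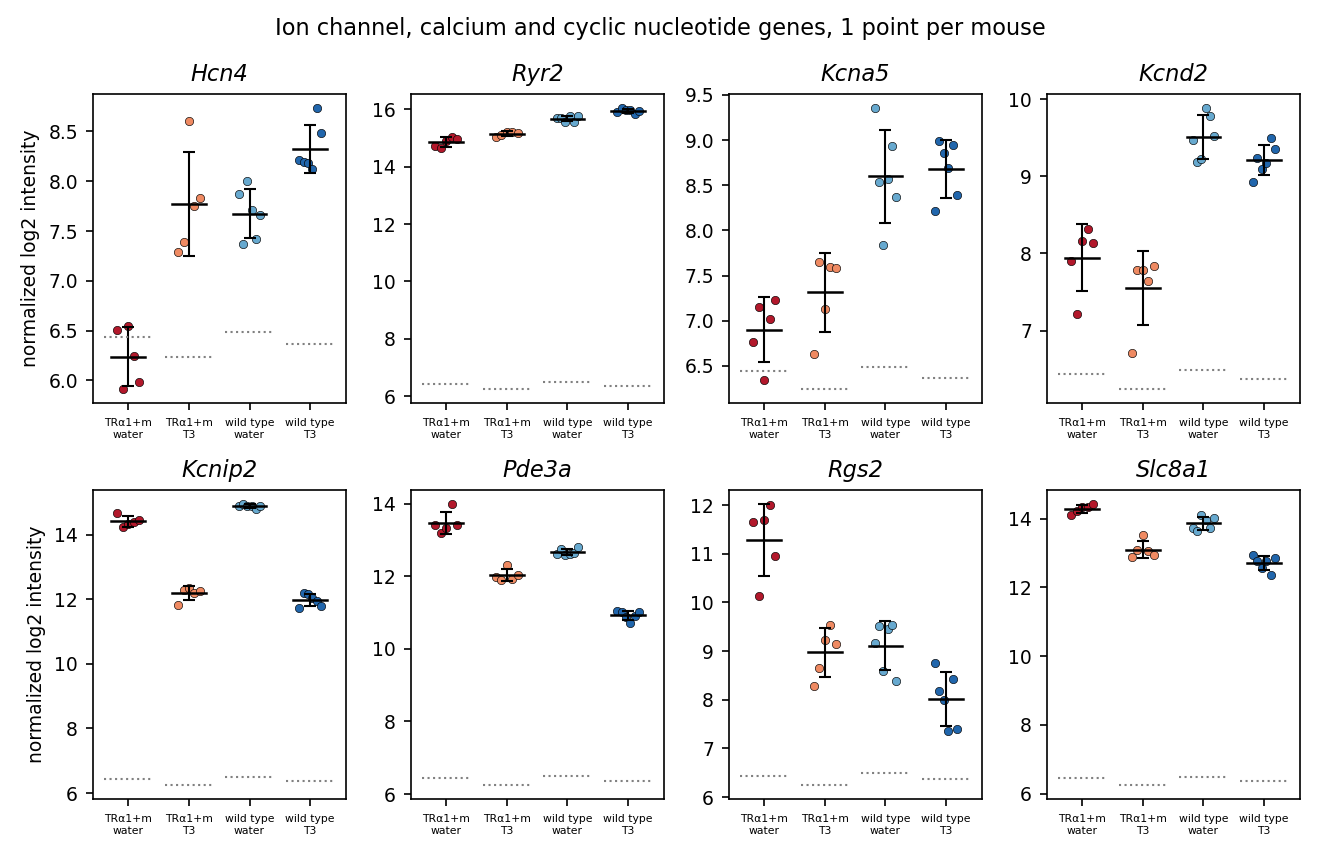
Normalized log2 intensity of 8 ion channel, calcium and cyclic nucleotide genes in each mouse, with group means, SD and the median negative-control level (dotted). Kcnd2 is high in both wild-type groups (9.51 and 9.21), while Kcnip2 is high in both water groups (14.88 and 14.41).

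Of 21 calcium cycling genes 9 were called higher and 7 lower. Ryr2, the ryanodine receptor that releases stored calcium at each beat, was at 14.71, 14.64, 14.90, 15.04 and 14.96 in TRα1+m on water and at 15.82 to 16.06 in wild type on T3 (median 15.96), a 2.14-fold rise without overlap. Casq1, the calsequestrin of fast skeletal muscle, rose 5.79-fold from 8.73 to 11.26, and Cacna2d1, an auxiliary calcium channel subunit, rose 2.16-fold. Atp2a2, the calcium pump of the reticulum, rose by 0.41 ± 0.09 (adjusted p = 0.00063), with all 6 wild-type arrays on T3 above all 5 TRα1+m arrays on water. Pln, phospholamban, the inhibitor of that pump, was 0.37 ± 0.08 lower (adjusted p = 0.00099), but was 0.30 and 0.38 higher when arrays were centred on the median gene or the median negative control. Both genes lie near the top of the scale, which ended at 19.93 in the deposited values, where differences are compressed.

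In the sarcomere 3 of 12 thick filament and M-band genes were called higher and 2 lower, and 4 of 16 thin filament and Z-disc genes each way. Under centring on the median gene these counts became 7 and 2, and 8 and 1. Myh6, the fast α myosin heavy chain, was at 18.40, 17.56, 18.31, 18.88 and 18.48 in TRα1+m on water and at 18.65 to 18.75 in wild type on T3 (median 18.72). The groups overlapped, and the rise of 0.38 ± 0.14 (adjusted p = 0.032) was not called without TRα1+m water array 2 (0.19, adjusted p = 0.14), without TRα1+m water array 3 (0.38, adjusted p = 0.054), or when only the 11 arrays were fitted (adjusted p = 0.097). Myom1 and Myom3, M-band proteins, rose 1.62-fold and at least 1.25-fold. Tnnt2 and Tnni3, cardiac troponins T and I, were 0.72 and 0.60 lower, differences that were not called when arrays were centred on the median gene (-0.05 and -0.18). Acta1, skeletal actin, was at 12.05, 12.21, 12.02 and 12.41 in 4 TRα1+m arrays on water and at 16.85 in array 2, above the 15.00 to 15.90 of wild type on T3. Its rise was 2.41 ± 0.74 (adjusted p = 0.0099) with that array and 3.35 (adjusted p = 4.6e-05) without it. Among 13 ventricular stress genes 5 were called higher (3 without TRα1+m water array 1) and 3 lower. Nppb (B-type natriuretic peptide) rose by 1.91 ± 0.40, while Nppa (atrial natriuretic peptide) was at 19.36 and 19.18 and was not called (adjusted p = 0.19). For Nppb, TRα1+m water array 2 (14.41, the others 11.08 to 12.79) lay within the 14.18 to 14.84 of wild type on T3.

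Genes of fatty acid oxidation were mostly lower in wild type on T3: 18 of 27 were called lower, 7 of them at least 2-fold, and 3 higher, with a median of -0.53. Under centring on the median gene 11 were lower and 8 higher. Acot1, a thioesterase that cleaves acyl-CoA, was at 10.53, 9.55, 9.96, 10.48 and 9.07 in TRα1+m on water and at 6.51 to 6.95 in wild type on T3 (median 6.63), a 9.47-fold fall. Eci1 (enoyl-CoA isomerase), Acadm (medium-chain acyl-CoA dehydrogenase) and Cpt1b (the carnitine transferase of muscle mitochondria) fell 3.14-fold, 2.87-fold and 1.98-fold, each without overlap between the groups. The other routes were mixed. Of 15 citric acid cycle genes 3 were called higher and 6 lower, and under centring on the median gene 7 and 4. Idh2, mitochondrial isocitrate dehydrogenase using NADP, was at 17.86, 17.96, 17.93, 17.84 and 17.96 at the low end and at 15.82 to 16.14 at the high end (median 15.96), a 3.85-fold fall, and the 3 subunits of the NAD-dependent enzyme went in both directions, Idh3a 2.01-fold up, Idh3b 2.03-fold down and Idh3g 1.28-fold down (Idh3g was not called when arrays were centred on the median gene).

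Of 36 complex I subunits 9 were called higher and 17 lower, but 17 higher and 9 lower under centring on the median gene. Ndufa7 and Ndufb8 fell 3.24-fold and 2.52-fold. In glucose use 8 of 23 were called higher and 9 lower. Pdk1, a kinase that inhibits pyruvate dehydrogenase, fell 2.62-fold, and Pdhb, a subunit of that dehydrogenase, rose 2.31-fold from 16.45 to 17.66. Ldhb, the heart lactate dehydrogenase subunit, fell 2.61-fold, and Pgk1, phosphoglycerate kinase, rose 2.31-fold. Among 15 genes of lipid synthesis 7 were called higher and 2 lower, and Elovl5, a fatty acid elongase, rose 3.04-fold.

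Cytosolic ribosomal protein genes, which build both ribosome subunits, were lower at the high end. Of 60 measured, 50 were called lower, 21 of them at least 2-fold, and 1 higher, with a median of -0.75. Under centring on the median gene 35 were called lower and 4 higher, and on the median negative control 33 and 7. Rps9 was at 13.24, 13.68, 13.49, 13.40 and 13.33 in TRα1+m on water and at 10.81 to 11.40 in wild type on T3 (median 11.15), 4.81-fold lower. Rpl19 and Rpl22 fell 2.94-fold and 2.79-fold, and for both wild type on water (13.79 and 13.77) was close to wild type on T3 (13.67 and 13.66). The 1 gene called higher was Rplp1, a stalk protein, with a rise of 0.80 ± 0.10 from 16.47 to 17.28. Probe sets of this family can share sequence with processed pseudogenes, so single members are uncertain.

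Interferon-induced genes were higher at the high end: 23 of 25 were called higher, 20 of them at least 2-fold, and 0 lower, with a median of 1.54. Rsad2, the antiviral protein viperin, was at 6.87, 8.14, 7.03, 7.20 and 7.00 in TRα1+m on water and at 9.91 to 10.44 in wild type on T3 (median 10.20), 7.72-fold higher. Ifit3b rose 6.16-fold and Ifih1, a sensor of double-stranded RNA, rose 3.78-fold. Irf7, the transcription factor that amplifies interferon production, rose from 5.68, below background, to 9.28, at least 7.15-fold. For Rsad2, Ifit3b, Ifih1 and Irf7 the mean of TRα1+m on T3 was higher still, at 10.91, 12.14, 10.56 and 10.63.

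Macrophage and MHC class II markers rose with them, 19 of 21 called higher (16 at least 2-fold) and 0 lower, with a median of 1.43. Their summed level spanned 13.58 to 14.37 in TRα1+m on water and 15.49 to 15.75 in wild type on T3. Lyz2, lysozyme of myeloid cells, was at 11.36, 11.79, 12.17, 11.61 and 11.64 in TRα1+m on water and at 14.06 to 14.32 in wild type on T3 (median 14.16), 5.51-fold higher. C1qb (a complement chain made by tissue macrophages) and Ctss (cathepsin S) rose 4.98-fold and 4.24-fold. All 7 lymphocyte and all 7 neutrophil markers measured were below the negative controls in both groups. In whole hearts, more cells of a type and more RNA per cell cannot be told apart.

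Matrix genes and endothelial markers were mostly called higher at the high end, and markers of other cell types differed from list to list. Extracellular matrix genes were called higher in 18 of 26 cases, 11 at least 2-fold, with a median of 0.96. Sparc, a matrix protein that binds collagen, was at 15.54, 15.72, 15.32, 15.64 and 15.54 in TRα1+m on water and at 17.59 to 18.02 in wild type on T3 (median 17.82), 4.80-fold higher. Loxl1 (a lysyl oxidase that cross-links elastin) rose 5.92-fold and Col4a2 (basement membrane collagen) rose 3.95-fold, while Timp4 and Mmp14, the 2 members called lower, fell 5.08-fold and 1.92-fold. Endothelial markers were called higher in 8 of 11 cases, among them Vwf (3.27-fold) and Eng (2.58-fold), and lower for Cldn5 (1.54-fold, not called when arrays were centred on the median gene). Fibroblast markers were called higher in 5 of 8 cases, and smooth muscle and pericyte markers in 3 of 8, with Acta2 3.04-fold higher. None of the 6 adipocyte markers (median -0.66), 4 nerve markers or 7 lymphocyte markers tested was called higher. The summed adipocyte level varied widely, from 7.97 to 12.73 in TRα1+m on water and from 7.63 to 9.23 in wild type on T3. Of the nerve markers 1 was called lower, and all 4 were below background in wild type on T3. Of 5 epicardial markers 3 were called higher, and 4 were below background in TRα1+m on water. Called higher too were 2 of 6 atrial, 1 of 2 erythroid and 1 of 7 neutrophil markers. The summed levels rose from 16.30 to 16.49 to 17.00 to 17.19 for endothelial, from 18.14 to 18.37 to 18.57 to 18.75 for fibroblast and from 15.59 to 16.04 to 16.48 to 16.80 for smooth muscle markers, lowest and highest array given for each group. Such a sum follows the most abundant members, in the smooth muscle list Acta2 among them. Of these 8 smooth muscle and pericyte markers 5 were not called, and the list's median difference was 0.06. The part of these cell types in the matrix and immune differences was not tested.

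**Figure D4:**
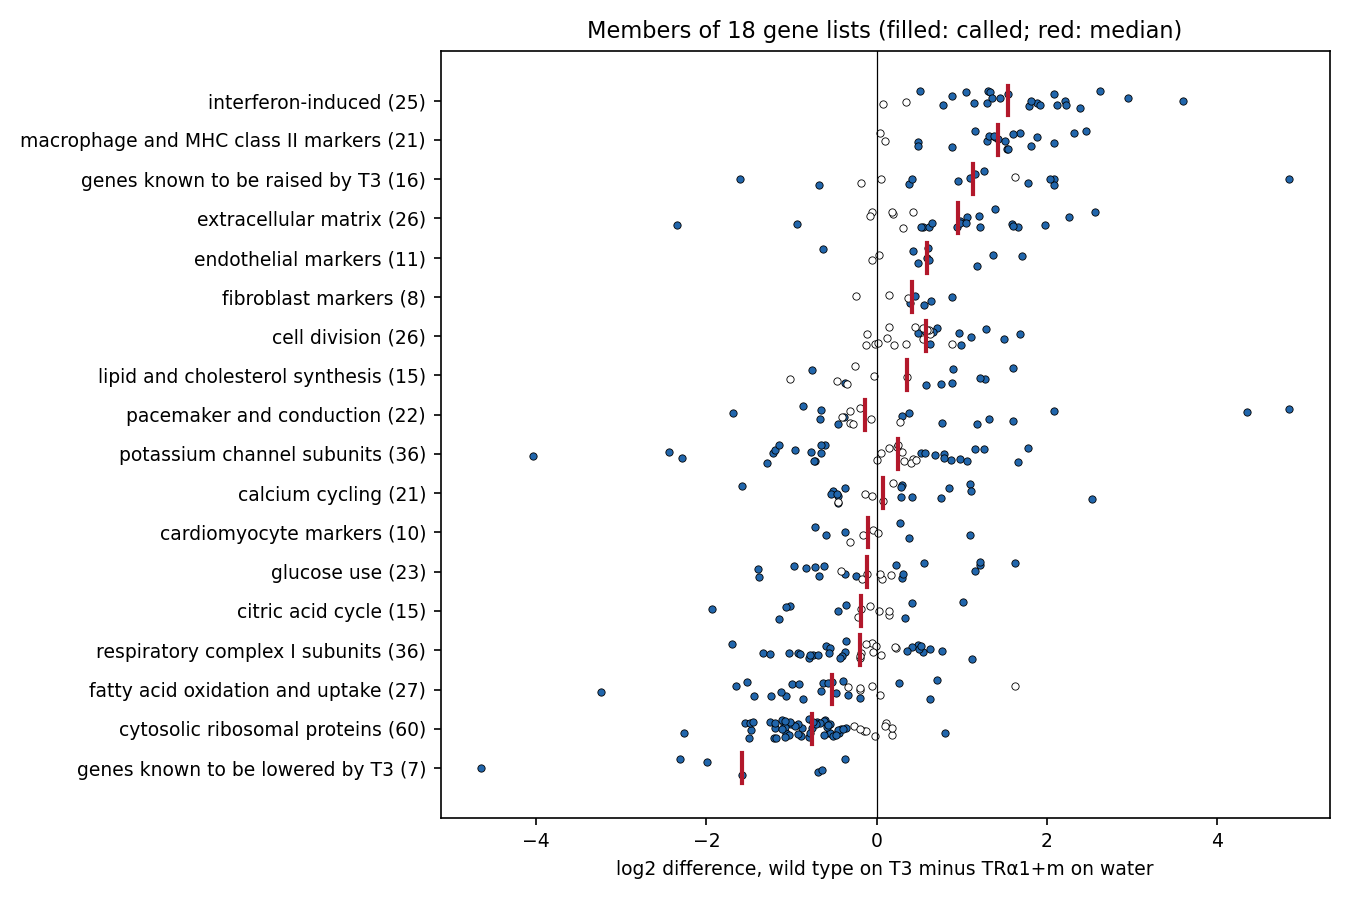
Log2 difference, wild type on T3 minus TRα1+m on water, of each measured member of 18 gene lists (number of members in brackets). Filled points were called, open points were not, and the red bar is the list's median, which runs from 1.54 for interferon-induced genes to -1.58 for genes known to be lowered by T3.

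Of 26 cell division genes 11 were called higher, 4 of them at least 2-fold, and 0 lower, though 19 were below background in TRα1+m on water. Top2a and Ccna2 rose at least 1.38-fold and 1.19-fold. This count was 7 without wild-type T3 array 2 and 17 without TRα1+m water array 2. Among 17 immediate early genes 3 were called higher and 8 lower: Nr4a1, an orphan nuclear receptor, fell 4.79-fold, and Egr3, a zinc finger factor, rose at least 2.61-fold. Of 18 clock genes 5 were called higher and 4 lower. Arntl (also Bmal1) and Npas2, activators of the clock, fell by 1.88 and 1.72, while Dbp and Nr1d2, targets of those activators, rose by 1.54 and 1.00. Nr1d1 was not called (0.71 ± 0.29, adjusted p = 0.052) and differed by 0.98 (adjusted p = 0.0025) without wild-type T3 array 6, the lowest of its group at 11.63. For these 5 clock genes wild type on water lay beyond wild type on T3 except for Npas2, and the hour of tissue collection is not given in the labels. Tfrc, the transferrin receptor of iron uptake, rose 6.18-fold from 11.17 to 13.79, most of it between the wild-type groups (11.31 on water), and Aldh1a1, which makes retinoic acid, rose 4.01-fold.

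How far wild-type hearts on water stood along the way divided these genes. The comparisons below share arrays with the one above, so their values stand side by side with no test of their likeness. T3 in wild type called 12.8% of tested probe sets, and genotype on water 39.9%. Unlike the step between the wild-type groups, the genotype step crosses the scale difference seen in the deposited values. Its share of calls, and the places below, therefore rest on the normalization. A technical difference between the arrays of the genotypes cannot be told apart from genotype in this step either. For the 2359 probe sets that differed at least 2-fold between the ends, the wild-type water mean lay between the end means for 1960 (83.1%, against 50% over all tested probe sets). Picking probe sets whose ends lie far apart raises this share by itself, so its excess over 50% is no separate result. With TRα1+m on water as 0% and wild type on T3 as 100%, the place of the wild-type water mean had a median of 68.7% with quartiles of 45.8% and 89.9%. It was past the middle for 741 of 1134 rises and 948 of 1225 falls, with medians of 61% and 75.6%. The 2359 include 224 rises and 271 falls with only the lower end below the negative controls, and 308 probe sets with both below. For these a place is measured against a background level. A strict staircase, with every wild-type array on water between all arrays of both ends, held for 231 of the rises and 176 of the falls, and for 2.3% of all tested probe sets.

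By list, the median place over members that differed at least 2-fold was 76.8% for 21 ribosomal genes, all of them falls, beside 75.6% for all falls of at least 2-fold. Beside 61.0% for all rises of that size, it was 33.5% for 20 interferon-induced genes, 40.1% for 16 macrophage markers and 23.4% for 12 matrix genes, 1 of which fell. No difference between lists was tested. Single genes spanned the range: Tfrc (5.6%), Lrat (9.3%), Hr (11.5%) and Myom2 (14.2%) changed mostly between the wild-type groups, Cntn2 (45.0%), Cep128 (46.2%) and Myl1 (51.6%) stood midway, and Klf9 (94.8%), Kcna5 (95.4%) and Rpl19 (92.5%) changed mostly between the genotypes on water. TRα1+m hearts on T3, where the mutant receptor met a high hormone level, stood at a median of 43.3%, with 55.3% for rises and 32.2% for falls. They had passed wild type on T3 for 195 of the 2359 probe sets, and lay on the far side of TRα1+m on water for 166.

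**Figure D5:**
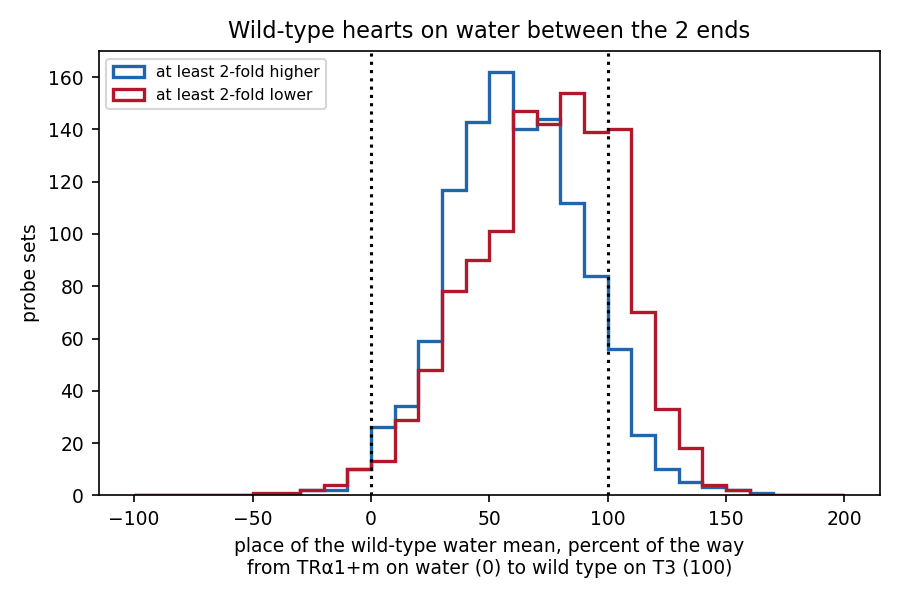
Histogram of the place of the wild-type water mean, in percent of the way from TRα1+m on water (0) to wild type on T3 (100), for the 1134 probe sets at least 2-fold higher and the 1225 at least 2-fold lower in wild type on T3. The y axis counts probe sets per bin of 10 percentage points, and those with an end below the negative controls are included. The medians are 61% for rises and 75.6% for falls.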

How the data were processed

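Per the labels, each of the 22 samples was the whole heart of 1 male mouse, and groups and replicate numbers came from the sample titles. Each array was taken as a separate mouse. P-values set each difference against the spread within groups, estimated over all 4 groups, with a precision set by the number of arrays. The deposited values are log2 intensities that the authors made in the Transcriptome Analysis Console 4.0.1. The submitters' processing notes name RMA (background correction, normalization between arrays and probe summary). Whether all arrays were normalized together, and the genome build, are not given in the sources used here. Of 28846 entries 22206 are gene probe sets, of which 19572 name 1 gene, 0 several and 2634 none in the platform table (all named ones matched a RefSeq gene of GRCm38.p6, and 0 symbols were updated).

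Gene probe sets were quantile-normalized over the 22 arrays, those with a mean above 4 were kept, and 4 group means were fitted with limma 3.58.1 in R 4.3.3 (lmFit, eBayes), so that all groups share an estimate of the spread. P-values were adjusted after Benjamini and Hochberg over all 21089 tested probe sets. Control probe sets followed the map of their array. Where a group mean was below its median negative control, the fold was taken against that level and written as "at least". Where several probe sets name a gene, the one with the highest mean was used. Predicted genes (Gm with a number, Rik) were left out of the ranking by size. That ranking also required the higher group mean to exceed its negative controls. Named genes were the 10 largest called rises and falls with a gene name in it, up to 4 called and 2 uncalled members of each list, and the genes of the study. Thrb, Slc2a4, Kcnj2, Kcnq1, Rgs2, Acta1, Rplp1, Timp4, Mmp14, Cldn5, Arntl, Tnni2 and Idh3g fall outside this rule and were chosen after their values were seen. The comparison, gene lists and rules were chosen with earlier results of these data known. Replicates shared at most 0.036% identical values and were counted separately. The fit was tested on simulated data. The alternatives were other scalings and filters, fits to the 11 arrays alone, other variance models, minimum fold changes, a two-stage adjustment, leaving out each array, a replicate block and, added after seeing the data, a fit without 2 arrays that stand apart.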

Additional observations from a re-analysis of the deposited data

Results flagged for a closer look

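Among 222 sets of values (111 named genes in each of the 2 groups) 18 held an array whose gap to its nearest neighbour took up most of the group's range by Dixon's criterion, where chance gives about 1 in 20. TRα1+m water array 2 stood apart for Acta1 (16.85, the others 12.02 to 12.41), Myom2 (17.18, the others 16.30 to 16.52), Rsad2 (8.14, the others 6.87 to 7.20), Kcnh2 (11.46, the others 11.77 to 11.88), Idh3a (16.77, the others 17.02 to 17.10) and Tnnt2 (19.40, the others at 19.48). TRα1+m water array 4 stood apart for Thrsp (12.40, the others 9.21 to 9.72) and Pde3a (14.00), and array 5 for Cntn2 (4.43) and Hr (5.91). Wild-type T3 array 6 was lowest for Lrat (11.09, the others 12.48 to 12.85), Nr1d1 (11.63, the others 12.92 to 13.35), Myl1 (17.47) and Rplp1 (17.02). Wild-type T3 array 1 was lowest for Atp2a2 (19.37) and Acadm (13.22), array 5 for Hr (8.21), and array 4 was highest for Cldn5 (10.14). Of these genes Nr1d1, not called with all arrays, was called without its outlying array, and Thrsp changed sign without its own (from -0.18 to 0.41).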

How the results depend on the processing

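The count of called probe sets ranged from 9151 to 10100 when 1 array was left out (4651 to 5172 higher, 4413 to 4928 lower), and calls of at least 2-fold from 1104 to 1239 higher and from 1164 to 1317 lower. The scaling moved the balance. In the deposited values 2426 probe sets were called higher and 10069 lower, at least 2-fold 568 and 2953. With arrays centred on the median negative control 3107 were called lower, and at least 2-fold 1995 were higher and 798 lower. A minimum fold change of 1.5 left 6369 calls (3189 higher, 3180 lower) and one of 2 left 2359 (1134 higher, 1225 lower). Same-numbered arrays of the 2 groups correlated between -0.25 and 0.29 in their deviations, and other pairs between -0.24 and 0.27. No pairing by number was seen, but so few pairs cannot exclude one. With the replicate block 9949 probe sets were called (5110 higher, 4839 lower, and at least 2-fold 1175 and 1257), and of the named genes the block changed only the calls of Ucp3 and Nr1d1, which then passed.

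Over 111 named genes and 20 other settings, 2138 of 2214 differences kept sign and side of the threshold. Centring on the median gene turned Thrsp to 0.07, Chrm2 to 0.10 and Pln to 0.30, and centring on the median negative control turned them to 0.14, 0.17 and 0.38, Tnnt2 to 0.02, and Idh3g and Ckm to 0.04. Leaving out 1 array changed the call or sign of 5 genes, Myh6, Ucp3, Nr1d1, Tnni2 (adjusted p up to 0.08) and Thrsp (-0.38 without TRα1+m water array 5 to 0.41 without array 4). Ucp3 ran from 1.05 without TRα1+m water array 5 to 2.26 without array 4. Without wild-type T3 array 6 and wild-type water array 3 together, Myh6 lost its call (adjusted p = 0.053) and Ucp3 and Nr1d1 gained one. The cause of these changes was not tested. Group means near the negative-control level, and genes near the top of the scale, give only compressed differences.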
